A study of Homo sapiens with 36 samples.

Results

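The RPE1 trisomy 21 comparison was described here across all 273 miRNAs of its table, out of 509 miRNA names listed in the 7 tables of the series. Every row of that table was a member, and no value was used to choose among them. RPE1 is a human retinal pigment epithelial cell line immortalised with telomerase (hTERT), and RPE1 H2B-GFP (written RPE1* below) is the same line expressing histone H2B fused to GFP. The table covers 6 libraries in 2 groups. They are RPE1* 21/3, with 3 copies of chromosome 21, and the RPE1* libraries numbered 1 to 3, which are near-diploid cells with a modal chromosome number of 46. Each group has 3 libraries, paired by replicate number. RPE1* 21/3 was made by transferring a chromosome by microcells into RPE1*, so both groups carry the hTERT and H2B-GFP transgenes, and the label gives the aneuploid line no clone number.

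A single measured quantity was used for each miRNA, the authors' mean of normalised read counts over the 6 libraries. It pools the trisomic and the control libraries, so it gives the level of a miRNA in the material of this comparison and holds no difference between the groups, no SD and no test. Single-library values were not analysed here, the depth of each library is unknown, and the precision of a single mean cannot be given. Where levels are compared between miRNAs, they are compared within the table. Mature miRNAs are sequenced whole, so the counts were not divided by length. Shares between tables are given in ppm, the parts in 1000000 of the summed mean of the listed miRNAs.

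MicroRNAs are short RNAs that guide Argonaute proteins to target mRNAs, chiefly through the seed, the bases 2 to 8 from the 5′ end. miRNAs with the same seed form a family and can recognise overlapping sets of targets. Many are transcribed together from clusters, and many lie inside host genes, so that several mature miRNAs may come from one primary transcript. Chromosome 21 carries the cluster of miR-99a, let-7c and miR-125b-2 inside the long noncoding RNA gene MIR99AHG, and the oncogenic and immune regulator miR-155 inside MIR155HG. The cluster has paralogs on chromosome 11 (miR-100, let-7a-2, miR-125b-1) and on chromosome 19 (miR-99b, let-7e, miR-125a).

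The mature sequences of these 3 clusters and of miR-155 are printed first because they tie the miRNAs of chromosome 21 to the most abundant miRNAs of the table. Of the 273 names, 230 matched a human mature miRNA of RefSeq (GRCh38.p14) and 43 did not, and the matched names held 99.1% of the summed mean. The seed is in capitals and all sequences run 5′ to 3′. The name hsa-let-7c is listed without an arm, and the sequence shown for it is the 5p arm.
miR-99a-5p: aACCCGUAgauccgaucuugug
miR-100-5p: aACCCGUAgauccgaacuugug
miR-99b-5p: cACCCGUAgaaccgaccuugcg
let-7c-5p: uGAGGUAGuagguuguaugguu
let-7a-5p: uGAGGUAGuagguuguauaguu
let-7e-5p: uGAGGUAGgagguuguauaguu
miR-125b-5p: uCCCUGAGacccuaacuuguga
miR-125a-5p: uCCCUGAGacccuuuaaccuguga
miR-155-5p: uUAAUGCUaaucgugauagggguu
Counted from 1 at the 5′ end, miR-100-5p differs from miR-99a-5p by the substitution U16A alone, and miR-99b-5p differs from miR-99a-5p by A1C, U11A, U16C and U21C. Against let-7c-5p, let-7a-5p carries G19A and let-7e-5p carries U9G and G19A. In every one of these pairs the seed is the same. miR-99a and miR-100, and let-7c and let-7a, are thus told apart by 1 base, and their values are uncertain to the extent that the counting could share reads between them.

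A few miRNAs made up nearly all of the summed mean of the listed miRNAs in the RPE1* 21/3 comparison. Shares are of that sum and not of all small RNA in the libraries. hsa-miR-21-5p, an oncogenic miRNA common in cultured cells, had a mean of 3474719 normalised counts, and hsa-miR-100-5p had 2409568. Together they held 73.0% of the summed mean of 8056234. The 10 most abundant miRNAs held 93.7% and the 20 most abundant 97.2%, while the miRNAs below a mean of 1000 held 0.356%. The means ran from 4.67 for hsa-miR-1275 to that of miR-21, with a median of 103. In all, 231 miRNAs had a mean of at least 10, 139 of at least 100, 74 of at least 1000, 22 of at least 10000 and 7 of at least 100000. In such bulk libraries, a lower share of cells with a miRNA and less of it per cell cannot be told apart.

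**Figure D1:**
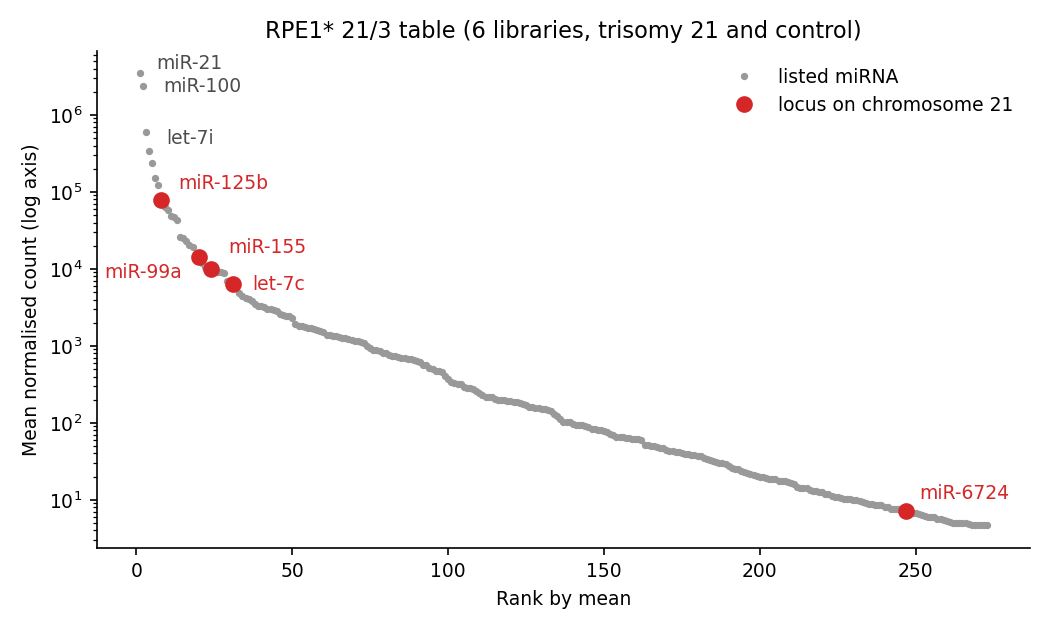
Mean normalised count over the 6 libraries (y axis, log scale) against rank (x axis) for the 273 listed miRNAs, with the 5 that have a locus on chromosome 21 in red. The curve falls from 3474719 for miR-21 to 4.67, miR-125b, miR-99a, miR-155 and let-7c lie in the upper part at ranks 8, 20, 24 and 31, and miR-6724 lies at rank 247.

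Behind miR-21 and miR-100 came hsa-let-7i-5p with a mean of 607742, hsa-miR-30a-5p with 338029 and hsa-let-7a-5p with 240025. hsa-miR-26a-5p followed with 151512, hsa-let-7f-5p with 124744, hsa-miR-125b-5p with 78862, hsa-let-7g-5p with 62897 and hsa-miR-181a-5p with 58094. The next 10 were hsa-miR-10a-5p at 49185, hsa-miR-99b-5p at 46854, hsa-miR-30d-5p at 42815, hsa-miR-31-5p at 25952, hsa-miR-30e-5p at 25063, hsa-miR-191-5p at 22837, hsa-miR-30c-5p at 20685, hsa-miR-125a-5p at 19471, hsa-let-7b-5p at 15390 and hsa-miR-99a-5p at 14343. Of these 20, 10 belonged to the let-7, miR-99/100 or miR-125 families, the families of the chromosome 21 cluster. Much of this set recurred in the other RPE1 tables, with 17 of the 20 also among the 20 most abundant of RPE1* 7/3 and 18 among those of RPE1 5/3 12/3.

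Almost all listed names were 5p arms, the strand on the 5′ side of the hairpin. Of the 273 names, 209 ended in 5p and held 99.7% of the summed mean, 59 had no arm in the name and held 0.311%, and 5 ended in 3p and held 0.00514%. The highest 3p name was hsa-miR-299-3p with a mean of 320. Statements on abundance, families, clusters and cell type markers therefore cover the listed arms, and an arm without a row was not analysed here.

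Chromosome 21 contributed few miRNAs, of which 3 were abundant and 1 was low. It holds every locus of 4 listed miRNAs, the second lowest number of the 23 chromosomes with a listed miRNA, and together they took 0.381% of the summed mean, which ranked chromosome 21 at position 11. Chromosome 17, with miR-21, took 43.8% and chromosome 11, with miR-100, took 29.97%. By the median mean of its miRNAs chromosome 21 stood at 8158, against 994 for chromosome 8, 839 for chromosome 19 and 697 for chromosome 7, the next 3 in order. That median rests on 4 miRNAs, 3 of them high and 1 low.

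hsa-miR-99a-5p, encoded at chr21:17911409-17911489 on the plus strand (GRCh37) in an intron of MIR99AHG, had a mean of 14343 normalised counts. hsa-let-7c, at chr21:17912143-17912236 in an exon of the same gene, had a mean of 6414, so miR-99a stood 2.24 times higher than its neighbour 653 bases away. hsa-miR-155-5p, whose mature sequence was found at chr21:26946295-26946318 in an exon of MIR155HG, had a mean of 9902, between the other two. hsa-miR-6724-5p, with 4 loci that RefSeq places on chromosome 21, had a mean of 7.12, and miR-99a was listed at 2014 times that level. The order on chromosome 21 was thus miR-99a, miR-155, let-7c and, far below, miR-6724, and no spread over libraries is at hand to say which neighbours differ beyond it.

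The third miRNA of the MIR99AHG cluster cannot be assigned to chromosome 21. hsa-miR-125b-5p is made from MIR125B2 at chr21:17962557-17962645, 50320 bases past let-7c in an exon of MIR99AHG, and from MIR125B1 at chr11:121970465-121970552 in an intron of MIR100HG, and both hairpins give the same mature sequence. Its mean of 78862 was 5.50 times that of miR-99a. With miR-125b shared equally over its loci, the part of the summed mean on chromosome 21 would be 0.870% in place of 0.381%. How the reads divide between the loci was not measured. hsa-miR-802, another miRNA of chromosome 21, was not analysed here.

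With miR-125b left aside, since it cannot be assigned to a locus, the paralogous clusters on other chromosomes reached higher means than miR-99a and let-7c. On chromosome 11, hsa-miR-100-5p (chr11:122022937-122023016, minus strand, intron of MIR100HG) stood 168 times above miR-99a, and let-7a-2 lies 5635 bases from it. On chromosome 19, inside SPACA6, hsa-miR-99b-5p had a mean of 46854, hsa-miR-125a-5p 19471 and hsa-let-7e-5p 7000, within 728 bases of genome. hsa-miR-99b-5p stood 3.27 times above miR-99a, and 6.69 times above let-7e. In both the chromosome 21 and the chromosome 19 cluster the miR-99 member was above the let-7 member.

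Seen as families, the chromosome 21 members were a small part of what carries their seed. The miR-99/100 family held 30.7% of the summed mean, of which miR-100 made 97.5%, miR-99b 1.90% and miR-99a 0.581%. The let-7 family, here let-7a to let-7i and miR-98, had 9 members that held 13.4%, of which let-7i made 56.4%, let-7a 22.3% and let-7c 0.596%. let-7i, at chr12:62997466-62997550 in an intron of MIRLET7IHG, stood 94.7 times above let-7c. Of the miR-125 family, with 1.22% of the summed mean, miR-125b made 80.2%.

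Grouping all 230 sequences by seed gave 191 seeds, 170 of them with 1 miRNA and 21 with at least 2. The 43 names without a matched sequence are in no group, among them hsa-miR-10b-5p, hsa-miR-30b-5p, hsa-miR-30d-5p, hsa-miR-181d and hsa-miR-374a-5p. The counts, shares and ratios of seed groups thus cover sequenced miRNAs only, and a seed with 1 miRNA can have further listed members. The 3 largest seed groups held 87.1% of the summed mean and the 10 largest 97.1%. The leading group, of miR-21 alone, held 43.1%. Behind it the miR-99/100 seed held 30.7% and the let-7 seed 13.3%, with 9 sequenced members. This seed group holds hsa-miR-98-5p at a mean of 3827, hsa-let-7d-5p at 8879 and, with the lowest mean, hsa-miR-4458 at 4.76, which shares the seed but not the family name. hsa-let-7c was not among the 9, as its name gives no arm.

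The fourth seed group was that of miR-30, whose listed sequences miR-30a, miR-30e and miR-30c held 4.76%, with miR-30a at 16.3 times the mean of miR-30c. By name the miR-30 family has 5 listed members and held 5.32%, with hsa-miR-30b-5p lowest at 1742. miR-26a and miR-26b, regulators of growth and differentiation, held 1.96%, with hsa-miR-26b-5p at 6670. The miR-125 seed held 1.22%. The miR-181 seed held 0.872%, with hsa-miR-181b-5p at 12081 and hsa-miR-181c-5p at 113. The groups with miR-10a, miR-31 or miR-191 as the only sequenced member held 0.611%, 0.322% and 0.283%. By name the miR-10 family also lists hsa-miR-10b-5p, at a mean of 336, which had no matched sequence and is in no seed group.

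The next group by size was the miR-17 seed with 6 members from 3 paralogous clusters, holding 0.201%. hsa-miR-20a-5p led it with a mean of 9248, followed by hsa-miR-93-5p with 3304, hsa-miR-17-5p with 2415 and hsa-miR-106b-5p with 1160. hsa-miR-106a-5p at 52.1 and hsa-miR-20b-5p at 29.3, both from the X chromosome, were the lowest. The highest member of this group thus stood 316 times above the lowest, and in the miR-15/16 seed group of 5 hsa-miR-16-5p stood 404 times above hsa-miR-195-5p. Over the 21 groups with at least 2 members the highest stood a median of 16.4 times above the lowest, and the ratio was over 10 in 12 groups and under 2.5 in 7, with 1.01 the lowest.

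**Figure D2:**
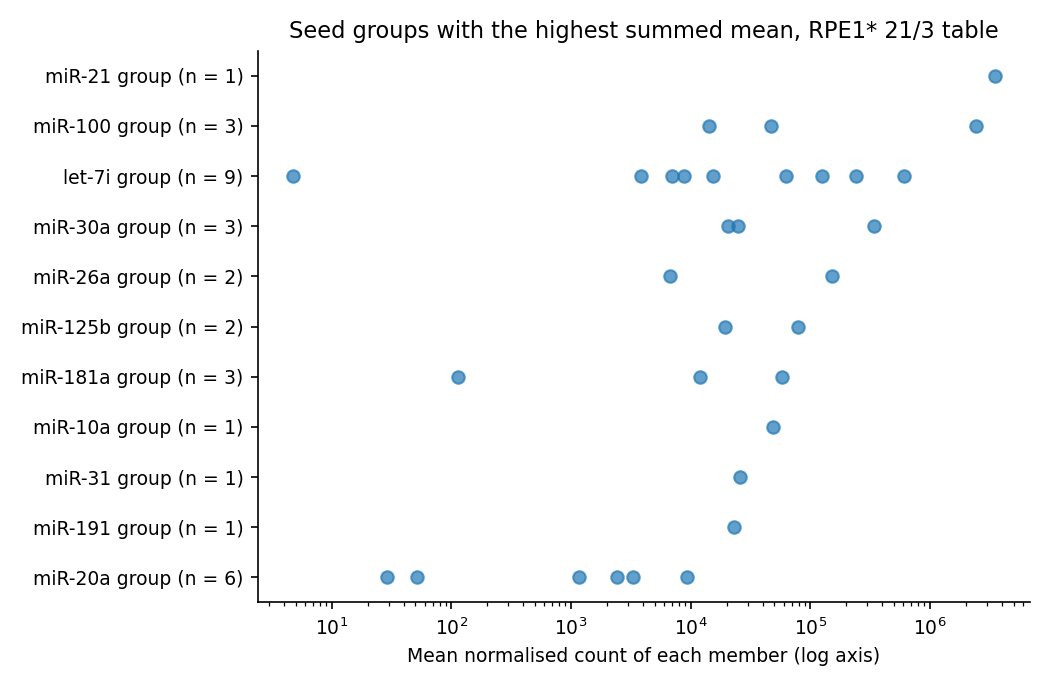
Mean normalised count over the 6 libraries (x axis, log scale) of each sequenced member of the 11 seed groups with the highest summed mean, 1 line per group named by its highest member, with n members. miR-21, at 3474719, is alone in its group, and the let-7i group spans 4.76 to 607742.

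Among the 230 sequences, 100 began with U and 75 with A, against 34 with C and 21 with G. Weighted by the mean, U made 66.9%, A 32.0%, C 1.05% and G 0.0480%. The first base of miR-21 is U and that of miR-100 and miR-99a is A. The most common length was 22 bases, with 120 sequences, and these held 96.2% of the mean of sequenced miRNAs.

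Loci at most 10 kb apart on one strand were taken as a cluster. By this rule 99 of the 273 miRNAs lay in 37 clusters with at least 2 listed members, and 12 of the clusters had at least 3. The 37 include a single hairpin, MIR550A3 on chromosome 7, to which the names hsa-miR-550a-5p and hsa-miR-550a-3-5p both map. miRNAs with a single locus inside a cluster held 33.6% of the summed mean, and miR-100 made 88.9% of that part. Mature miRNAs of one cluster were often unequal. In the 25 clusters with at least 2 single-locus members, the highest stood a median of 6.19 times above the lowest, with a range of 1.74 to 425 times, and the ratio was over 10 in 9 clusters and under 2 in 3.

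The widest gap was in the miR-17 to miR-92a-1 cluster on chromosome 13, an oncogenic cluster in exons of MIR17HG, where hsa-miR-20a-5p at 9248 stood 425 times above hsa-miR-92a-1-5p at 21.7. Its paralog in MCM7 on chromosome 7 ran from hsa-miR-93-5p at 3304 to hsa-miR-25-5p at 38.4. In both, the lowest listed member was a 5p arm of the miR-25/92 family, which is best known for its 3p arms. The miR-23a cluster in MIR23AHG ran from hsa-miR-27a-5p at 1922 to hsa-miR-23a-5p at 12.0, and its paralog in AOPEP from hsa-miR-27b-5p at 262 to hsa-miR-23b-5p at 60.9. The 3p arms of these miRNAs were not analysed here.

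**Figure D3:**
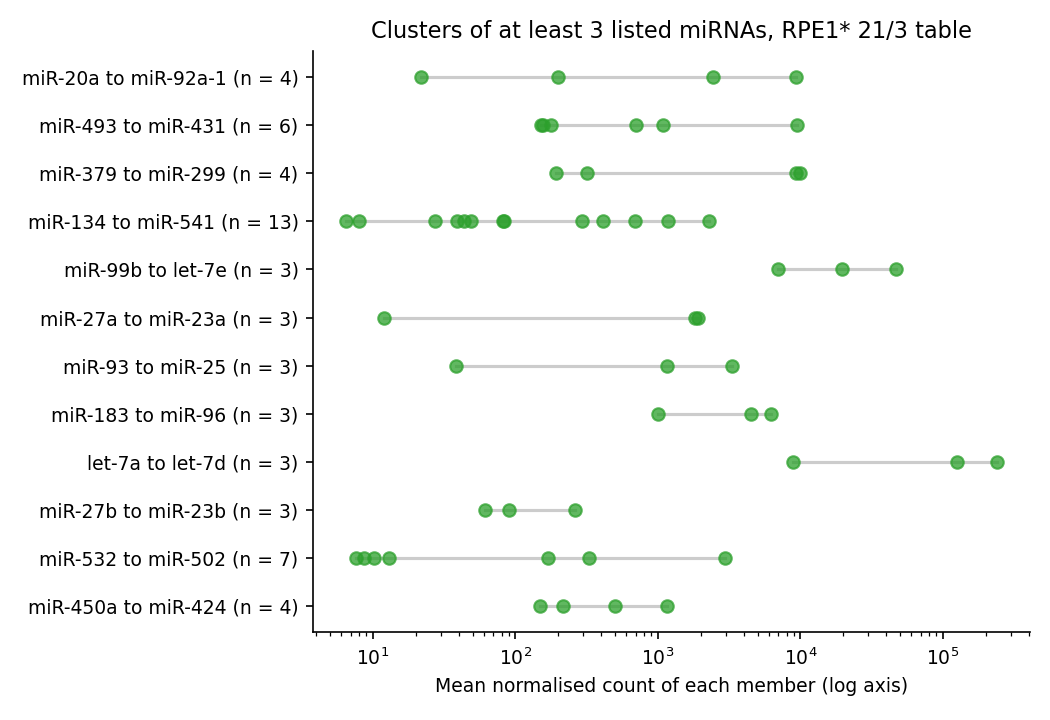
Mean normalised count over the 6 libraries (x axis, log scale) of each listed member of the 12 clusters with at least 3 listed miRNAs, 1 line per cluster, named by its highest and lowest member. The members of the miR-99b to let-7e cluster lie between 7000 and 46854, and those of the miR-20a to miR-92a-1 cluster between 21.7 and 9248.

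The largest cluster region was on chromosome 14, at chr14:101335397-101532024, the imprinted region of the maternally expressed noncoding genes MEG8 and MEG9. It held 25 of the 32 miRNAs of chromosome 14, with 0.463% of the summed mean, a median mean of 193, and 6 members at a mean of at least 1000. hsa-miR-379-5p at 9965 and hsa-miR-411-5p at 9237, in MEG8, and hsa-miR-493-5p at 9394, in MIR493HG, led it. The lowest members of the 3 clusters that the rule of one strand gave in this region were hsa-miR-431-5p at 151, hsa-miR-299-5p at 193 and hsa-miR-541-5p at 6.44. hsa-miR-134 led the third cluster with 2287. hsa-miR-380-5p at 22.2 and hsa-miR-382-5p at 745 also lie in the region. The annotation used placed them on the minus strand, so they were counted in none of these clusters. The region was listed with similar shares in the other RPE1 tables, 0.511% in RPE1* 7/3 and 0.402% in RPE1 5/3 12/3, and with 0.00116% to 0.00200% in the 4 tables of HCT116, a colorectal cancer cell line.

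Other clusters of 3 or more were on chromosome 9, chromosome 7 and the X chromosome. In MIRLET7A1HG the means ran from hsa-let-7a-5p at 240025 to hsa-let-7d-5p at 8879, though let-7a has 3 loci and let-7f 2. The miR-183 cluster on chromosome 7 ran from hsa-miR-183-5p at 6201 to hsa-miR-96-5p at 1001. On the X chromosome the 7 members in introns of CLCN5, a chloride transporter gene, ran from hsa-miR-532-5p at 2969 to hsa-miR-502-5p at 7.60, and the cluster beside MIR503HG from hsa-miR-450a-5p at 1167 to hsa-miR-424-5p at 149.

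Of the 237 miRNAs with a single placed locus, 196 lay inside a host gene on the same strand, and 41 did not. Protein-coding genes hosted 120, of which 98 were intronic and 22 exonic, and long noncoding RNA genes hosted 76, with 38 in introns and 38 in exons. The median mean was 91.3 in protein-coding hosts, 287 in noncoding hosts and 60.6 outside hosts. Protein-coding hosts held 46.8% of the summed mean, which fell to 3.68% without miR-21, at chr17:57918627-57918698 in an exon of VMP1, a gene of autophagy. Noncoding hosts held 44.2%, and 14.3% without miR-100. miRNAs outside any host held 0.184%, with hsa-miR-1260a highest at 2626.

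Markers of cell types were checked against the label of the line. hsa-miR-204-5p, a miRNA of the retinal pigment epithelium made from an intron of TRPM3, had a mean of 4173, or 518 ppm, and the related hsa-miR-211-5p was not listed. The summed share of both was 1452 ppm in RPE1* 7/3 and 380 in RPE1 5/3 12/3, where both were listed. In the 4 HCT116 tables it was 3.302 to 4.50 ppm. The miR-183 cluster, known from sensory neurons of the retina and from many epithelia, was listed in full with 1452 ppm. It stood at 1380 ppm in RPE1* 7/3, 802 in RPE1 5/3 12/3 and 21188 to 27470 in the HCT116 tables. Of the miR-200 family, which marks epithelia with E-cadherin, hsa-miR-200a-5p alone was listed, at 0.584 ppm. No member was listed in the other RPE1 tables, and the 4 listed members stood at 1270 to 2747 ppm in the HCT116 tables.

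Fibroblast and smooth muscle markers stood at 114 ppm, nearly all from hsa-miR-145-5p at a mean of 808 and hsa-miR-143-5p at 101, with hsa-miR-199a-5p at 7.63. The same list stood at 9.01 ppm in RPE1* 7/3, 95.6 in RPE1 5/3 12/3 and 145.02 to 269 in the HCT116 tables, so it was not higher here than in HCT116. Of the neuronal list hsa-miR-9-5p was listed at a mean of 72.2, or 8.96 ppm. That list stood at 9.26 ppm in RPE1* 7/3, 14.2 in RPE1 5/3 12/3 and 1778 to 2663 in the HCT116 tables. Of the pluripotency list hsa-miR-302a-5p was listed at a mean of 21.2, and of the liver list hsa-miR-122-5p at 4.78. None of the blood and muscle markers was listed. As few 3p arms are listed, a marker without a row cannot be read as absent from the cells.

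The other 6 tables cover other libraries and list partly different sets of miRNAs. They were normalised separately and share no library with the RPE1* 21/3 table. Each is named by its aneuploid line. RPE1* 7/3 has 3 copies of chromosome 7 and, by the study, spontaneously gained chromosomes 9 and 12 as well, RPE1 5/3 12/3 has 3 copies each of chromosomes 5 and 12 and carries no H2B-GFP by its label, and the HCT116 lines gained chromosome 5, 18, 3 or 8. Shares of the summed mean of each table are set side by side, without a test, and a difference cannot be assigned to the aneuploid line or to the control. For miR-99a the share was 1780 ppm in the RPE1* 21/3 table, 2463 in RPE1* 7/3 and 1050 in RPE1 5/3 12/3. For let-7c the same 3 tables gave 796, 1181 and 457, and for miR-155 they gave 1229, 1809 and 1161. The RPE1* 21/3 table was between the other two for each of these 3 miRNAs.

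In the HCT116 tables miR-99a stood at 266 to 861 ppm and let-7c at 700 to 1005, so that miR-99a was above let-7c by 2.09 to 2.30 times in the 3 RPE1 tables and at 0.379 to 1.04 times let-7c in the HCT116 tables. miR-155 was at 0.837 ppm in HCT116 5/4 and not listed in the other HCT116 tables. miR-6724 stayed between 0.744 and 4.18 ppm in all 7 tables. miR-125b had 9789 ppm in the RPE1* 21/3 table, 5493 in RPE1* 7/3 and 11185 in RPE1 5/3 12/3. Together the single-chromosome miRNAs of chromosome 21 took 0.381% here, 0.546% in RPE1* 7/3 and 0.267% in RPE1 5/3 12/3, which leaves miR-125b out. With miR-125b and every other miRNA of several loci shared equally over its loci, the order of these tables changed, with 0.870% here, 0.820% in RPE1* 7/3 and 0.826% in RPE1 5/3 12/3. No rank of the RPE1* 21/3 table can be read from these shares.

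**Figure D4:**
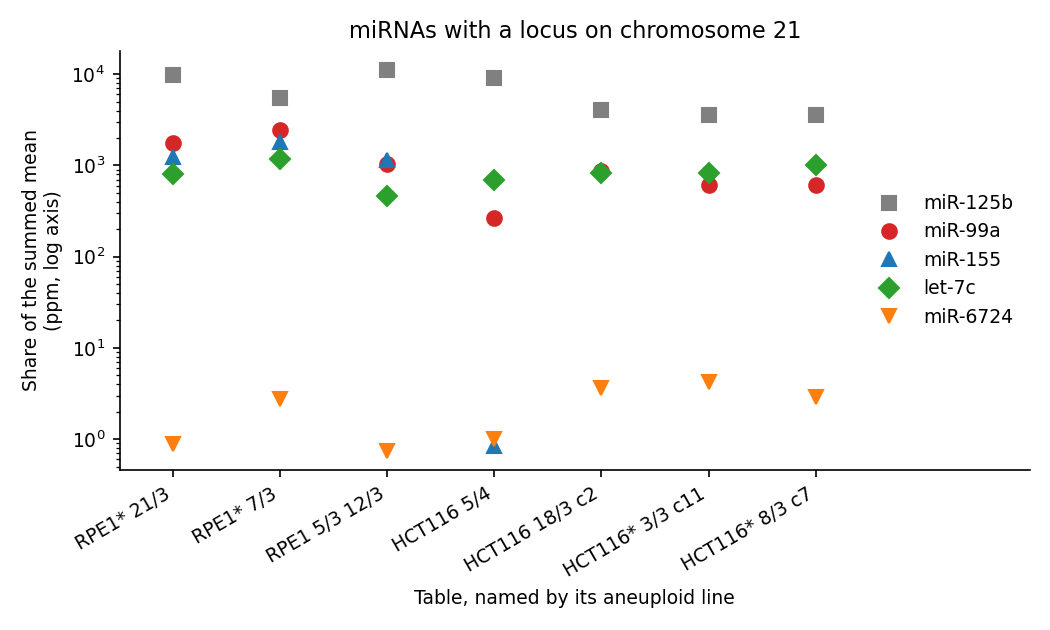
Share of the summed mean of each table (y axis, ppm, log scale) of the 5 miRNAs with a locus on chromosome 21, in the 7 tables named by their aneuploid line (x axis), each pooling 6 libraries. miR-155 is at 1161 to 1809 ppm in the RPE1 tables, at 0.837 in HCT116 5/4 and without a point where it was not listed.

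Beside RPE1* 7/3, which is derived from the same parental RPE1* cells but whose control was libraries 11 to 13, 129 miRNAs had a mean of at least 100 in both tables. The median ratio of shares was 1.11. For 90 the shares were within 2 times of each other, for 26 the RPE1* 21/3 table was higher by more than 2 times and for 13 it was lower than 0.5 times. With each ratio divided by the median, 21 were above 2 and 16 under 0.5. Among the 129 the highest ratio was that of hsa-miR-335-5p, from an intron of the imprinted gene MEST on chromosome 7, with 151 ppm here and 17.1 there, a ratio of 8.82. hsa-miR-374a-5p followed at 7.37, hsa-miR-452-5p at 4.78, hsa-miR-186-5p at 3.74 and hsa-miR-361-5p at 3.70. hsa-miR-15a-5p, hsa-miR-138-5p, hsa-miR-224-5p, hsa-miR-26b-5p and hsa-miR-15b-5p made up the highest 10, between 3.15 and 3.35. A further 27 miRNAs reached a mean of 100 in only 1 of these tables, and 3 of them, chosen after their values were seen, had higher ratios than miR-335. They were hsa-miR-143-5p at 15.2, hsa-miR-1246 at 13.8 and hsa-miR-145-5p at 12.6, each with a mean under 100 in RPE1* 7/3.

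Among the 129 the lowest ratio was that of hsa-miR-7-5p, a miRNA of neuroendocrine cells with loci on 3 chromosomes. It had 1310 ppm here and 6578 there, or 0.199, and none of the further 27 was lower. Within the 129, hsa-miR-7-5p was followed by hsa-miR-320b at 0.246, hsa-miR-2682-5p at 0.309, hsa-miR-574-5p at 0.314, hsa-miR-193a-5p at 0.342 and hsa-miR-584-5p at 0.346. hsa-miR-204-5p at 0.357, hsa-miR-4326 at 0.372, hsa-miR-485-5p at 0.391 and hsa-miR-423-5p at 0.406 completed the lowest 10 of the 129. Beside RPE1 5/3 12/3, 5 of all 129 miRNAs were not within 2 times, and 3 of these 5 were within 2 times of RPE1* 7/3. Of the 26 above 2 times, 1 (hsa-miR-361-5p, at 2.22) was also above 2 times there, and of the 13 under 0.5 times, 1 (hsa-miR-7-5p, at 0.413) was also under 0.5 times.

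**Figure D5:**
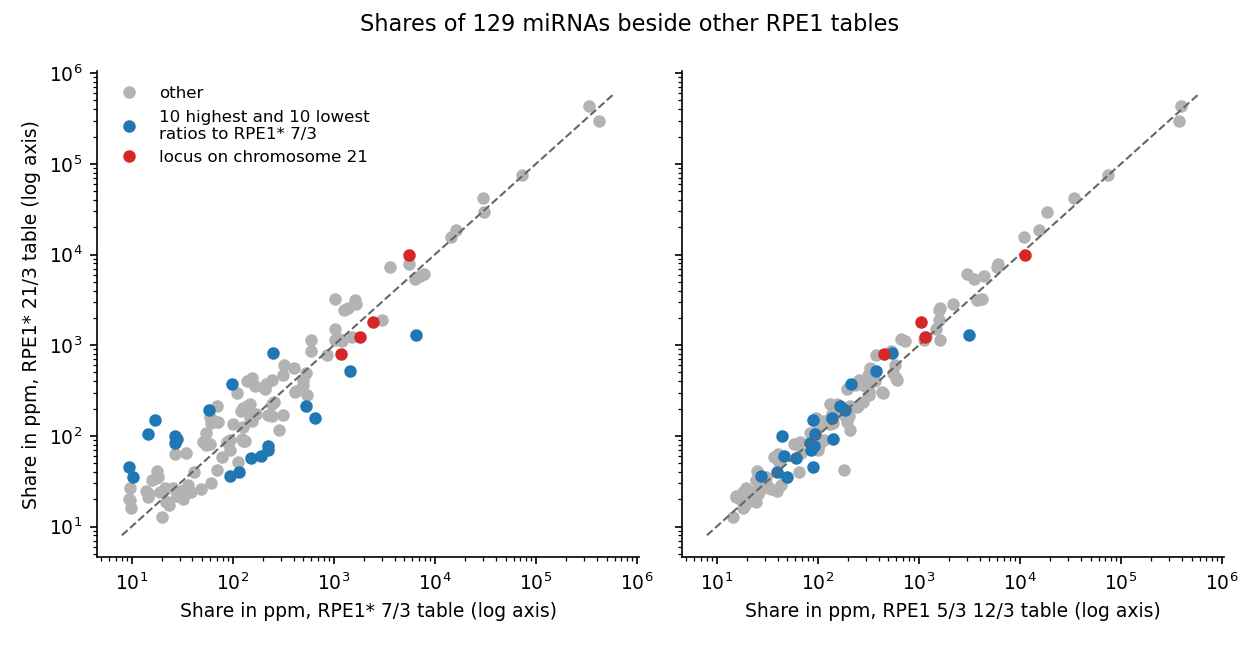
Share in ppm in the RPE1* 21/3 table (y axis, log scale) against that in the RPE1* 7/3 table (left) and the RPE1 5/3 12/3 table (right, x axes, log scale) for 129 miRNAs, with equality dashed. The 20 miRNAs with the highest and lowest ratios to RPE1* 7/3 are in blue, and 4 of the miRNAs with a locus on chromosome 21 are in red. The blue points lie closer to the line on the right, but they were chosen as the extremes on the left, so no result is read from this.

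By seed group the 3 RPE1 tables had the same 3 groups at the top. The miR-21 seed held 43.1% here, 33.3% in RPE1* 7/3 and 39.3% in RPE1 5/3 12/3, and the miR-99/100 seed held 30.7%, 43.1% and 38.1%. In RPE1* 7/3 miR-100 was the most abundant miRNA, and in each of the other 6 tables miR-21 was. The let-7 seed held 13.3%, 12.9% and 11.4%. The sequenced miR-30 members, miR-30a, miR-30e and miR-30c, held 4.76%, 3.302% and 3.97%, against 0.480% to 0.867% in the HCT116 tables. hsa-miR-30b-5p and hsa-miR-30d-5p, without a matched sequence, are left out of these shares. Of the 273 miRNAs, 205 were listed in all 7 tables, 27 were listed in the 3 RPE1 tables and in no HCT116 table, and hsa-miR-3195, at a mean of 10.2, was listed in no other table.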

How the data were processed

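Total RNA with small RNAs was taken from RPE1* 21/3 and RPE1* cultures, 3 libraries each, and sequenced after small RNA library preparation. The authors trimmed adapters with cutadapt, mapped to hg19 (GRCh37) and counted miRBase miRNAs with mirdeep2, then used DESeq2 with the paired replicate number as a term for this line. Reads of near-identical mature miRNAs may be shared by the counting.

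The mean in the deposited tables is a signal that the authors made by dividing counts by size factors and averaging over the 6 libraries of both groups. The other 5 columns of each table hold the authors' own comparison (log2 fold change, its standard error, a statistic, p-value and adjusted p-value), and none of them was used. The count test planned for values of single libraries was therefore not run, and nothing was tested.

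Loci and host genes (at least 200 bp, same strand) came from GENCODE 44 on GRCh37. Of 320 loci, 267 were in that annotation, 36 and 5 were placed by exact matches of RefSeq hairpin and mature sequences, and 12 by chromosome alone. Sequences are those of RefSeq on GRCh38.p14. Shares are percent or ppm (parts in 1000000) of the summed mean of listed miRNAs. Named miRNAs were the 20 most abundant, all with a locus on chromosome 21 and in the let-7, miR-99/100 and miR-125 families, members of the 10 largest seed groups, the highest and lowest member of clusters of at least 3, cell type markers, and the 10 highest and 10 lowest ratios to RPE1* 7/3 (mean of at least 100 in both). A few others were named after their values were seen. The members and lists were chosen with earlier results of these data known. The grouping steps were tested on simulated data. The analysis used Python 3.11.15, pandas 2.3.3, numpy 2.4.6 and matplotlib 3.10.9.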

Additional observations from a re-analysis of the deposited data

How the results depend on the processing

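No paired analysis was possible because the values used are means over the 6 libraries of both groups and come from no test. For the same reason leaving out a replicate and the other count models were not run. Of 24 alternatives over 10 results, 10 left the value within 1.5 times for a count or the same at 3 digits for a percent, 13 did not, and 1 turned the direction. The counts compared here start from a mean limit of 10, while the counts of seed groups, clusters and host genes given earlier have no limit. A limit of 100 in place of 10 gave 139 miRNAs (231 at 10) and 11 seed groups with at least 2 miRNAs (19 at 10, 21 with no limit). It gave 107 miRNAs in a host gene (168 at 10, 196 with no limit). Protein-coding hosts alone gave 98 at 10, against 120 with no limit. Without the most abundant miRNA the 10 highest of the rest held 89.9% and chromosome 21 held 0.669%, and with loci split equally chromosome 21 held 0.870%. The chromosome 21 share was 0.698 times that of RPE1* 7/3, 0.710 without the most abundant miRNA of each table and 0.628 scaled by the median ratio, but 1.06 with loci split equally in both tables, an alternative chosen after seeing the data. Clusters held 33.6% of the summed mean at 10 kb, 3.00% at 3 kb, where miR-100 has no listed neighbour, 37.9% at 50 kb and 39.2% with loci split equally. The share that begins with U was 43.5% with each miRNA counted once.

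Depth per library is unknown here, so no interval can be given for a mean, and low means are the least certain.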
